A study of Mus musculus with 6 samples.

Results

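The TNF superfamily ligands described here are 10 genes, Tnf, Lta, Ltb, Fasl, Tnfsf9, Tnfsf10, Tnfsf12, Tnfsf13, Tnfsf13b and Tnfsf14, taken by symbol from 53090 gene rows of expected counts, with 1 row found for each. Their RNA was followed in 3 libraries of liver neutrophils and 3 libraries of blood neutrophils. All 6 libraries came from mice kept for 1 week on a diet of 3,5-diethoxycarbonyl-1,4-dihydrocollidine (DDC), which causes bile duct injury, so no group without the diet enters any comparison. Cells were selected with magnetic beads for Ly6G, a surface protein of mouse neutrophils, after a Percoll gradient for liver and after lysis for blood. Tissue and preparation therefore cannot be told apart. The sources used here do not give strain, age or sex, and state 3 mice without saying whether each gave both a liver and a blood library.

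Ligands of this family are mostly membrane proteins that assemble as trimers, and many can be cut from the surface to act at a distance. They bind receptors that start NF-kB signalling or, through death domains, cell death. TNF is an early product of activated myeloid cells, lymphotoxins organise lymphoid tissue, Fas ligand and TRAIL can kill cells, and BAFF and APRIL sustain B cells and plasma cells. In neutrophils, TNF acts both as a product and as a priming signal.

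Libraries held 13054673 to 17579669 counts. Neutrophil markers were present throughout, with S100a8 at 728 to 1310 CPM in liver and 1680 to 4060 CPM in blood (CPM is the count scaled to library depth, with TMM factors). Of 8 neutrophil markers, 7 were called lower in liver, Ly6g among them at 4.50 to 11.9 CPM against 21.3 to 45.6 CPM. Markers of other cells were also found. For scale, 17.4% of all tested genes were called higher in liver and 14.2% lower. The summed level of 10 Kupffer cell and macrophage markers was 165 to 436 CPM in liver and 41.0 to 159 CPM in blood, and 5 of 9 tested were called higher in liver. The summed level of 6 monocyte markers was 1010 to 1460 CPM in liver and 356 to 451 CPM in blood, with 4 of 6 called higher. Markers called higher also included 3 of 6 tested for dendritic cells (summed level 33.4 to 87.5 CPM in liver, with every blood library lower and the lowest at 7.97 CPM), 3 of 4 for endothelium (19.2 to 32.9 CPM in liver and 14.8 to 18.1 CPM in blood) and 3 of 3 for hepatocytes (14.1 to 208 CPM in liver and 0.438 to 3.52 CPM in blood). Platelet markers, with 3 of 5 called lower, summed to 7.57 to 15.4 CPM in liver and 34.4 to 199 CPM in blood. Erythroid markers, with none of 4 called, summed to 998, 1380 and 76.1 CPM in liver 1, 2 and 3 and to 15000, 7440 and 186 CPM in blood 1, 2 and 3. In these bulk libraries, more cells of a type and more RNA per cell cannot be told apart.

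The RNA element that Tnf is best known for is shown first, because Tnf was the member with the largest difference. Tnf messages are short-lived, and adenine- and uridine-rich stretches after the stop codon are bound by decay proteins such as tristetraprolin. Only the bases after the stop codon were searched. The 30-base stretch there with the most ATTTA copies lies 437 to 466 bases after the Tnf stop codon. It is at chr17:35199679-35199708 on the minus strand (GRCm38, GENCODE), with ATTTA repeats in capitals.
Tnf AU-rich stretch: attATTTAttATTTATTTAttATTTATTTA
Tnf carried 8 ATTTA copies in the 764 bases after its stop codon, 5 of them in this stretch. Of 2362 genes whose stretch after the stop codon was within 20% of that length, 0.296% had as many, and the median was 1. The longer motif TTATTTATT, found in 3.94% of those genes, was present 5 times in Tnf, overlaps included. Lta had 3 ATTTA copies, whereas Ltb and Tnfsf13 had 0. These counts describe sequence only, and RNA stability was not measured.

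Promoters are shown for Tnf, Ltb and Tnfsf14, the 3 members with the highest mean levels per kilobase of exon in both groups. Together they carry most of the ligand RNA described next. In blood, Tnf made up only 3.36% of the summed level of the 10 ligands, and its libraries overlapped those of Tnfsf13b. RefSeq sequences (GRCm38.p6) from 250 bases before to 50 bases after the start were available for 8 of the 10 members. Capitals mark TATAAA, the kappaB consensus and the AP-1 motif TGANTCA, searched on both strands, with no overlaps among the matches shown.
Tnf promoter, chr17:35201958-35202257, minus strand: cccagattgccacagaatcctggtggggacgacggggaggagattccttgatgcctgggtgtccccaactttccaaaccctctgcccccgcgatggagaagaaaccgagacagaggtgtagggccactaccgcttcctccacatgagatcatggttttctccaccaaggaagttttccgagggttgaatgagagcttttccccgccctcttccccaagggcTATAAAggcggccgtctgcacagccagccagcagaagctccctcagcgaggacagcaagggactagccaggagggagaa
Ltb promoter, chr17:35194257-35194556, plus strand: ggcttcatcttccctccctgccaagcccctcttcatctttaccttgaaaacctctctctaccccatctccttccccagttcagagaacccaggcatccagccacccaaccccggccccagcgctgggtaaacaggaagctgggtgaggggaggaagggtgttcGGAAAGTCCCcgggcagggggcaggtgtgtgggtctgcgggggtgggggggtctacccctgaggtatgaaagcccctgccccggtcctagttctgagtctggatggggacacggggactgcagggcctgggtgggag
Tnfsf14 promoter, chr17:57194132-57194431, minus strand: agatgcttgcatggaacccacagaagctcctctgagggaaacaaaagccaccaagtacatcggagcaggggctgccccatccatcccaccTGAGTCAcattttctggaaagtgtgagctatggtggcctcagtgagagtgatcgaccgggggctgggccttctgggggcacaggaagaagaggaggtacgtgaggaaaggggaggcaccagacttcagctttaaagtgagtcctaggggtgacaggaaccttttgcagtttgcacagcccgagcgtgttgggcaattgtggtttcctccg
In Tnf the match was TATAAA, at -29 from the start, which 13.6% of 32851 promoter windows also held on either strand. The Lta window held TATAAA too, at -167. In Ltb it was the kappaB consensus at -87 (4.51% of windows). In Tnfsf14 it was TGANTCA at -160, also present in the windows of Tnfsf13 and Tnfsf13b (7.81% of windows). A match describes letters, not a bound site.

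In liver neutrophils the ligand repertoire was led by Tnf, whereas in blood it was led by Ltb and Tnfsf14. By level per kilobase of exon, Tnf made up 52.0%, 57.8% and 54.7% of the summed level of the 10 ligands in liver 1, 2 and 3. In blood 1, 2 and 3 its share was 2.78%, 3.41% and 3.88%. Ltb made up 21.2% ± 3.29 in liver and 46.5% ± 3.19 in blood (SD, n = 3 each), and Tnfsf14 16.0% ± 2.61 in liver and 45.4% ± 3.43 in blood. The summed level itself was 139, 247 and 151 CPM per kilobase in the liver libraries and 112, 138 and 102 CPM per kilobase in the blood libraries. The liver sums were all above the blood sums, with liver 1 and blood 2 nearly level.

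**Figure D1:**
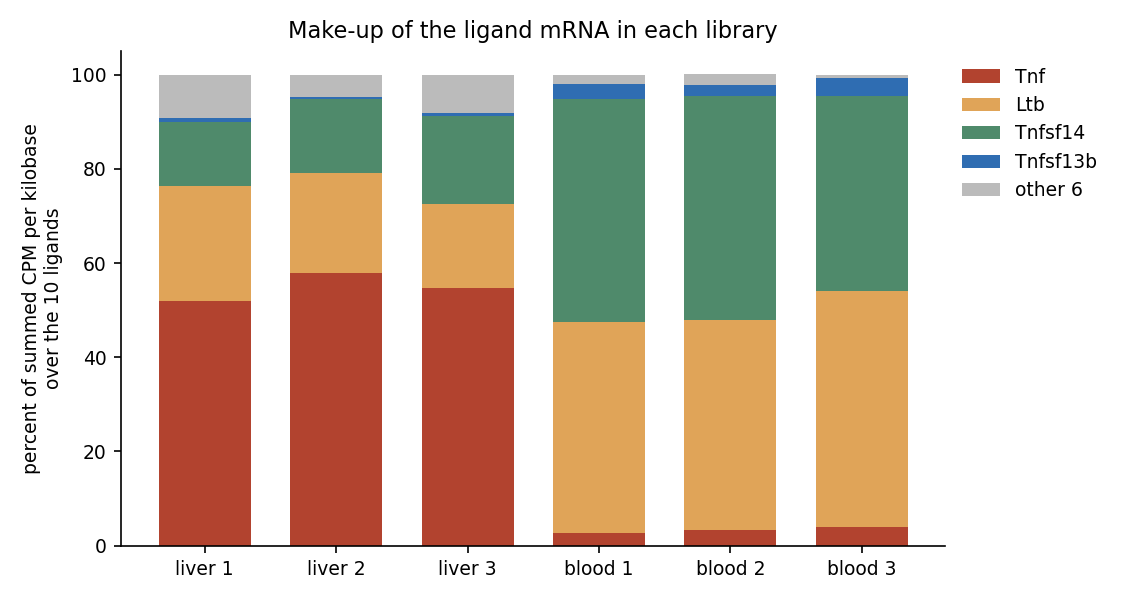
Share of each ligand (percent of the summed CPM per kilobase over the 10 ligands) in each of the 6 libraries, one bar per library, liver left of blood. Tnf takes 52.0% to 57.8% of each liver bar and 2.78% to 3.88% of each blood bar.

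In order of mean level per kilobase in liver, Tnf at 99.3 CPM per kilobase was followed by Ltb at 37.8, Tnfsf14 at 28.7, Tnfsf13 at 3.78, Tnfsf9 at 3.69, Tnfsf12 at 2.70, Fasl at 1.57, Tnfsf13b at 1.15, Lta at 0.260 and Tnfsf10 at 0.136 CPM per kilobase. The libraries of Ltb and Tnfsf14 overlapped in that order, as did those of Tnfsf13 and Tnfsf9, and of Tnfsf9 and Tnfsf12. In blood, Ltb at 54.3 and Tnfsf14 at 53.6 CPM per kilobase overlapped each other at the top. Tnf at 3.93 and Tnfsf13b at 3.53 overlapped next, and Tnfsf9 stood at 1.02 CPM per kilobase. Tnfsf13, Tnfsf12, Fasl, Lta and Tnfsf10 had 0.485 CPM per kilobase or less in blood.

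Of the 10 ligands, 8 passed the filter on low counts, and of these 4 rose and 2 fell in liver (edgeR, quasi-likelihood test) at an adjusted p under 0.05 over 13458 genes. Over all tested genes 17.4% were called higher and 14.2% lower, and the median log2 fold change was 0.04. Of the 8 tested ligands, every liver library lay above every blood library for 5 and below for 2, which over all tested genes held for 25.8% and 22.7%, and Ltb overlapped between the groups. Lta and Tnfsf10, under the filter and outside that background, also had every liver library above every blood library.

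**Figure D2:**
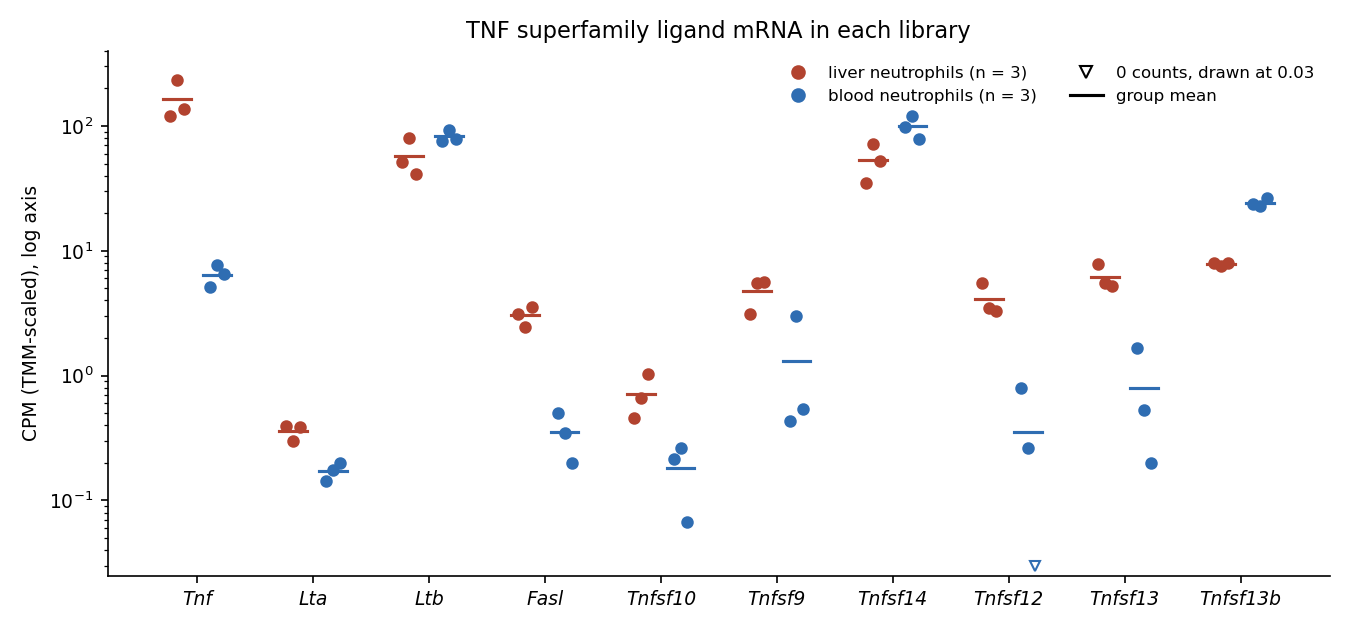
Level of each ligand (CPM, log axis) in the 3 liver libraries (left points of each gene) and the 3 blood libraries (right points), with group means as bars and an open triangle for 0 counts. Tnf lies between 119 and 234 CPM in liver and between 5.10 and 7.71 CPM in blood, while Tnfsf13b and Tnfsf14 lie lower in every liver library.

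Tnf encodes tumour necrosis factor, an activator of NF-kB signalling and endothelium, and lies at chr17:35199381-35202007. It had 119, 234 and 136 CPM in liver 1, 2 and 3, against 5.10, 7.71 and 6.51 CPM in blood 1, 2 and 3. Every liver library was far above every blood library. Tnf was 25.3-fold higher in liver, with a log2 fold change of 4.66 ± 0.32 (SE) and an adjusted p of 7.46e-05 (edgeR). Macrophage and monocyte marker sums, given above, were also higher in every liver library than in every blood library, and their part in the Tnf level was not tested. Without liver 3 and blood 1, the libraries with the highest macrophage markers in each group, the log2 fold change was 4.61. This run does not separate Tnf from those markers. Their sums were still 236 and 165 CPM in liver 1 and 2, against 55.6 and 41.0 CPM in blood 2 and 3.

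Lta and Ltb encode lymphotoxin alpha and beta, which form a complex that signals for lymphoid tissue, and flank Tnf on chromosome 17. Lta, at chr17:35203165-35205351, had 6, 5 and 6 counts in the liver libraries and 2, 2 and 3 counts in the blood libraries, too few for the main test. Its ratio of depth-scaled sums, liver over blood, was 2.06, with a 95% exact interval of 0.811 to 5.87 that covers counting error only. Tested with no filter, where 19.6% of 26614 genes were called in either direction, its adjusted p was 0.673 (edgeR). Ltb, at chr17:35194439-35196320, had 51.5, 79.6 and 41.0 CPM in liver and 75.9, 93.3 and 77.9 CPM in blood. The groups overlapped through liver 2, and the log2 fold change of -0.52 ± 0.25 (SE) did not pass (adjusted p = 0.141, edgeR). Without liver 2 it was -0.84 and was called lower (adjusted p = 0.0267).

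Among other genes next to these 3, 5 of the 6 listed were in the files and tested, and their median was -0.06 on the log2 scale. Of these, 1 was called higher and 0 lower, against 17.4% and 14.2% of all tested genes. The called one was Aif1, a macrophage actin-binding protein gene, at 9.14, 10.8 and 8.10 CPM in liver and 2.80, 2.02 and 0.269 CPM in blood. Leaving out liver 2 ended this call. Nfkbil1, Lst1, Ddx39b and Prrc2a were not called.

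Fasl encodes Fas ligand, a death ligand of cytotoxic lymphocytes. It had 3.13, 2.47 and 3.54 CPM in liver and 0.503, 0.350 and 0.201 CPM in blood. All liver libraries exceeded all blood libraries. Fasl was 8.51-fold higher in liver, with a log2 fold change of 3.09 ± 0.60 (SE) and an adjusted p of 0.00504 (edgeR), but it rested on 14 counts over the blood libraries. The summed level of 9 T cell markers was 23.3, 7.17 and 18.0 CPM in liver and 15.4, 10.6 and 10.1 CPM in blood. That of 8 NK cell markers was 9.66, 3.07 and 10.5 CPM in liver and 9.49, 1.49 and 0.201 CPM in blood. Single NK cell markers differed. In liver 2, blood 2 and blood 3, Klrb1c held 18, 5 and 0 counts, Prf1 10, 1 and 1, and Eomes 10, 7 and 0. In the same libraries Klra8 held 5, 0 and 0 counts, Gzma 4, 3 and 0, and Klre1 3, 0 and 2. Nkg7 held 1, 1 and 0 counts there, and Ncr1 held 0 in each. The 7 T cell markers tested had a median log2 fold change of 0.90, with 1 called, Cd3d, at -2.07. Trac, at 2.36, was above blood in every liver library and did not pass (adjusted p = 0.104, edgeR). The 5 NK cell markers tested had a median of 1.05, all 5 were positive, and none was called (lowest unadjusted p 0.331). Under the filter were Gzma, Klre1 and Ncr1, with ratios of mean CPM, liver over blood, of 4.68, 1.74 and 1.33. For T cells these were Cd8a and Cd8b1, with ratios of 3.45 and 0.956. With no filter, none of the markers under the filter was called (lowest adjusted p 0.109, Gzma, edgeR). The part of T and NK cells in the Fasl level was not tested.

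Tnfsf10 encodes TRAIL, another death ligand. It had 7, 11 and 16 counts in the liver libraries and 3, 3 and 1 counts in the blood libraries. It was under the filter, and its ratio of depth-scaled sums was 4.12, with a 95% exact interval for counting error of 1.80 to 11.0. With no filter its adjusted p was 0.340 (edgeR). For both Lta and Tnfsf10, a two-sided exact permutation test of the library values gave p = 0.10, the smallest that 3 against 3 allows. This p follows from every liver library lying above every blood library and adds nothing to it. Every other ligand except Ltb gave the same p.

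**Figure D3:**
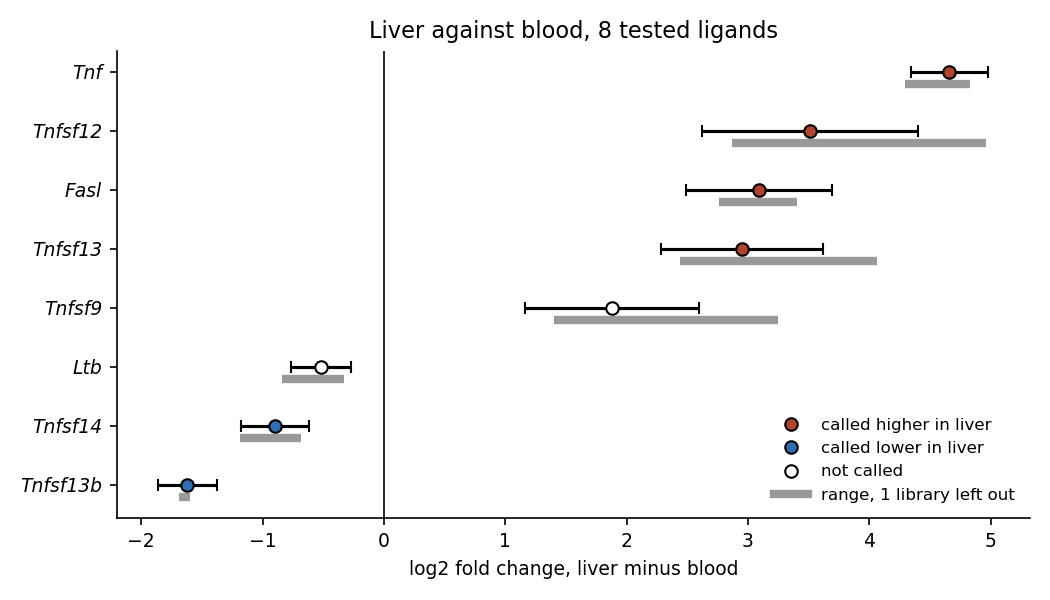
Log2 fold change (liver minus blood) of the 8 tested ligands with standard errors, ordered by size, and grey bars for the range when 1 library is left out. Tnf is at 4.66 and Tnfsf13b at -1.62, and the grey bars of Tnfsf12, Tnfsf13 and Tnfsf9 are the widest.

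Tnfsf9 and Tnfsf14 are costimulators of T cells. Tnfsf9, encoding 4-1BB ligand, had 3.13, 5.54 and 5.60 CPM in liver and 0.431, 2.98 and 0.537 CPM in blood. Blood 2 stood close to liver 1, and the other blood libraries were well below. The log2 fold change of 1.88 ± 0.72 (SE) did not pass (adjusted p = 0.0736, edgeR). Without blood 2 it was 3.25 and was called higher (adjusted p = 0.00801), and it was also called by DESeq2 (adjusted p = 0.0361) and limma-voom (adjusted p = 0.0271).

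Tnfsf14 encodes LIGHT, which binds the lymphotoxin beta receptor and HVEM, at chr17:57189492-57194177. It had 34.8, 71.9 and 52.4 CPM in liver and 97.8, 121 and 78.3 CPM in blood. The liver libraries were all lower, though liver 2 came close to blood 3. Tnfsf14 was 1.87-fold lower in liver, with a log2 fold change of -0.90 ± 0.28 (SE) and an adjusted p of 0.0347 (edgeR). The call was lost without liver 1 (-0.68, adjusted p = 0.0968), liver 3 (-0.89, adjusted p = 0.0836), blood 1 (-0.96, adjusted p = 0.0638) or blood 2 (-0.76, adjusted p = 0.0964).

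Tnfsf12, Tnfsf13 and Tnfsf13b encode TWEAK, a ligand tied to tissue repair and to the growth of biliary progenitor cells, APRIL, which sustains plasma cells, and BAFF, which sustains B cells. Tnfsf12 (chr11:69686250-69695849) and Tnfsf13 (chr11:69682846-69685784) lie next to each other on the minus strand. The model Tnfsfm13 reads through both, so reads were divided among these rows by the authors' estimation, and an antisense gene, Tnfsf13os, overlaps them. Tnfsf12 had 5.48, 3.49 and 3.28 CPM in liver and 0.791, 0.263 and 0 CPM in blood. Tnfsf13 had 7.83, 5.54 and 5.21 CPM in liver and 1.65, 0.526 and 0.201 CPM in blood. For both genes, all liver libraries were higher, and the highest blood level was in blood 1.

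Tnfsf12 rose by 3.51 ± 0.89 on the log2 scale (SE, adjusted p = 0.0154), against only 14 counts over the blood libraries, and Tnfsf13 rose by 2.95 ± 0.67 (adjusted p = 0.00959, edgeR), against 32. The Tnfsf12 call was lost without liver 1 (adjusted p = 0.0565) or blood 2 (adjusted p = 0.0555), and without blood 1 its value was 4.96. Without blood 1, Tnfsf13 had a value of 4.06. The 3 rows summed, a grouping chosen after seeing the data, had 15.6, 11.2 and 11.9 CPM in liver and 2.73, 0.876 and 0.403 CPM in blood, 9.58-fold higher in liver (adjusted p = 0.00398, edgeR). Tnfsf13os had 8, 3 and 18 counts in liver and 2, 0 and 0 counts in blood.

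The summed macrophage markers had 159, 55.6 and 41.0 CPM in blood 1, 2 and 3, the same order as the locus. In liver 1, 2 and 3 they had 236, 165 and 436 CPM, an order that the locus did not share, since its highest value was in liver 1. Monocyte markers had 1160, 1010 and 1460 CPM in the liver libraries and 451, 412 and 356 CPM in the blood libraries. In blood 2 and 3, Clec4f and Marco were at 0, whereas Adgre1, at 51.6 and 40.6 CPM, made up most of the macrophage marker sum. The part of these cells in the level of Tnfsf12 and Tnfsf13 was not tested.

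**Figure D4:**
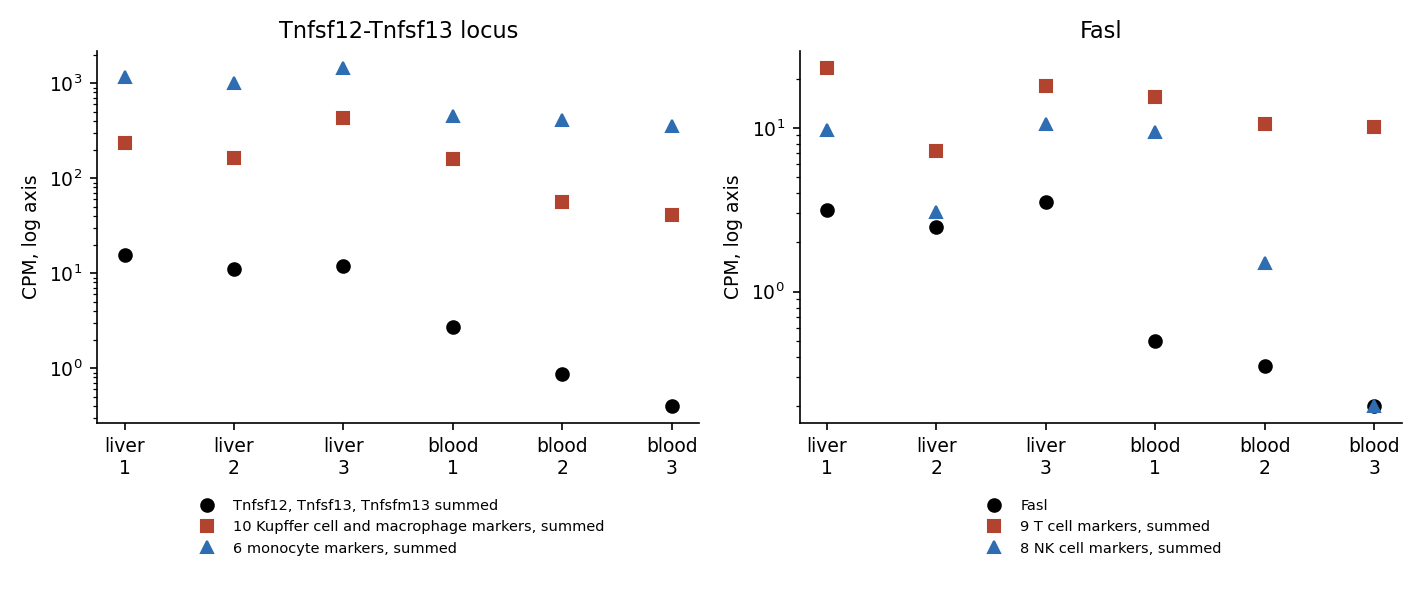
Levels (CPM, log axis) in each library of the summed Tnfsf12-Tnfsf13 locus with macrophage and monocyte marker sums (left), and of Fasl with T cell and NK cell marker sums (right), liver left of blood. The locus runs from 11.2 to 15.6 CPM in liver and 0.403 to 2.73 CPM in blood, and Fasl from 2.47 to 3.54 CPM in liver and 0.201 to 0.503 CPM in blood.

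Tnfsf13b (chr8:10006467-10039072) was lower in liver, whereas its relative Tnfsf13 was higher. It had 8.03, 7.59 and 8.04 CPM in liver and 23.6, 22.8 and 26.3 CPM in blood. The libraries within each group lay close together, and the groups were well apart. Tnfsf13b was 3.07-fold lower in liver, with a log2 fold change of -1.62 ± 0.24 (SE) and an adjusted p of 0.0015 (edgeR). B and plasma cell markers, whose sums were 60.8 to 78.0 CPM in liver and 51.4 to 234 CPM in blood, overlapped between the groups. Of 6 tested, 2 were called lower. Of 8 neutrophil markers, 7 were called lower, against 14.2% of all tested genes, and their median log2 fold change was -1.65. The part of the mix of cells in the levels of Tnfsf13b and Tnfsf14 was not tested.

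The remaining 8 ligands of the superfamily on the list, Tnfsf4, Cd40lg, Cd70, Tnfsf8, Tnfsf11, Tnfsf15, Tnfsf18 and Eda, were all under the filter. None had more than 11 counts in any library, and their summed level was 0.587 to 1.16 CPM in liver and 0.201 to 1.29 CPM in blood. Cd70 had 0 counts in all 6 libraries.

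Receptors for the 10 ligands were mixed, with 3 of 11 tested called higher and 1 lower and a median log2 fold change of 0.67. Over all tested genes 17.4% were called higher and 14.2% lower, and the median was 0.04. The receptor counts were not tested against these shares. Tnfrsf1b, the TNF receptor TNFR2, had 840, 644 and 607 CPM in liver and 339, 337 and 359 CPM in blood, with a log2 fold change of 1.01 ± 0.20 (SE, adjusted p = 0.00559, edgeR). Tnfrsf1a, the death-domain TNF receptor TNFR1, had 411, 411 and 291 CPM in liver and 538, 603 and 441 CPM in blood, and did not pass (adjusted p = 0.105). The liver libraries were therefore all higher for Tnfrsf1b and all lower for Tnfrsf1a. Ltbr, the lymphotoxin beta receptor shared by Ltb and Tnfsf14, had 37.7, 42.3 and 41.4 CPM in liver and 88.8, 97.3 and 81.6 CPM in blood, 2.20-fold lower (adjusted p = 0.0018). Tnfrsf12a, the TWEAK receptor Fn14, was at 3.72, 5.36 and 4.31 CPM in liver and 0.503, 0.876 and 0.806 CPM in blood, a log2 fold change of 2.61 ± 0.49 (adjusted p = 0.00412).

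Tnfrsf22, a mouse decoy receptor for TRAIL, was also called higher, at 12.5 to 49.9 CPM in liver and 1.84 to 7.91 CPM in blood (adjusted p = 0.0177, edgeR). It has a close relative in Tnfrsf23, with which reads may be exchanged, and its call was lost without blood 3 (adjusted p = 0.0538). Fas, the receptor of Fas ligand, and Tnfrsf14, encoding HVEM, had log2 fold changes of -0.45 and -0.10 and did not pass. Tnfrsf9, the receptor of Tnfsf9, had 15, 3 and 16 counts in the liver libraries and 0 counts in every blood library, under the filter, and was called higher with no filter (adjusted p = 0.0107, edgeR).

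Among genes that process the ligands, 1 of 7 tested was called higher and 2 lower, with a median of -0.51 (all tested genes, 17.4% higher and 14.2% lower). Adam17, the protease that cuts TNF from the membrane, had 93.7, 154 and 97.9 CPM in liver and 51.9, 66.9 and 64.2 CPM in blood, with a log2 fold change of 0.92 ± 0.23 (SE, adjusted p = 0.0154, edgeR). Its call was lost without liver 2 (adjusted p = 0.0522) or blood 1 (adjusted p = 0.0698). Frmd8, which stabilises the ADAM17 complex at the surface, was 2.02-fold lower (adjusted p = 0.00494). Furin, a protease that matures ADAM17, APRIL and BAFF, was 1.59-fold lower, and this call was lost without liver 1 (adjusted p = 0.0906) or blood 3 (adjusted p = 0.0693).

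Of 12 tested genes that bind or control the Tnf message, 2 were called higher and 2 lower, with a median of -0.09. These counts are near the shares over all tested genes, 17.4% higher and 14.2% lower. Zfp36, encoding tristetraprolin, which binds the AU-rich stretch printed above, had 2190, 1800 and 1220 CPM in liver and 2880, 2080 and 1020 CPM in blood. The groups overlapped and it did not pass (adjusted p = 0.712, edgeR). Mapkapk2, whose kinase phosphorylates and restrains tristetraprolin, had 627, 772 and 517 CPM in liver and 129, 243 and 131 CPM in blood, a log2 fold change of 1.93 ± 0.29 (SE, adjusted p = 0.00177). Zc3h12a, encoding the RNase Regnase-1, had a log2 fold change of 1.87 ± 0.23 (adjusted p = 0.000685). Tia1, a translational silencer of Tnf, was 2.11-fold lower, but not called without liver 1 (adjusted p = 0.0534). Rc3h2, encoding Roquin-2, was 1.49-fold lower, and its call was lost without any single library except liver 3 and blood 2 (adjusted p 0.0537 to 0.0819).

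**Figure D5:**
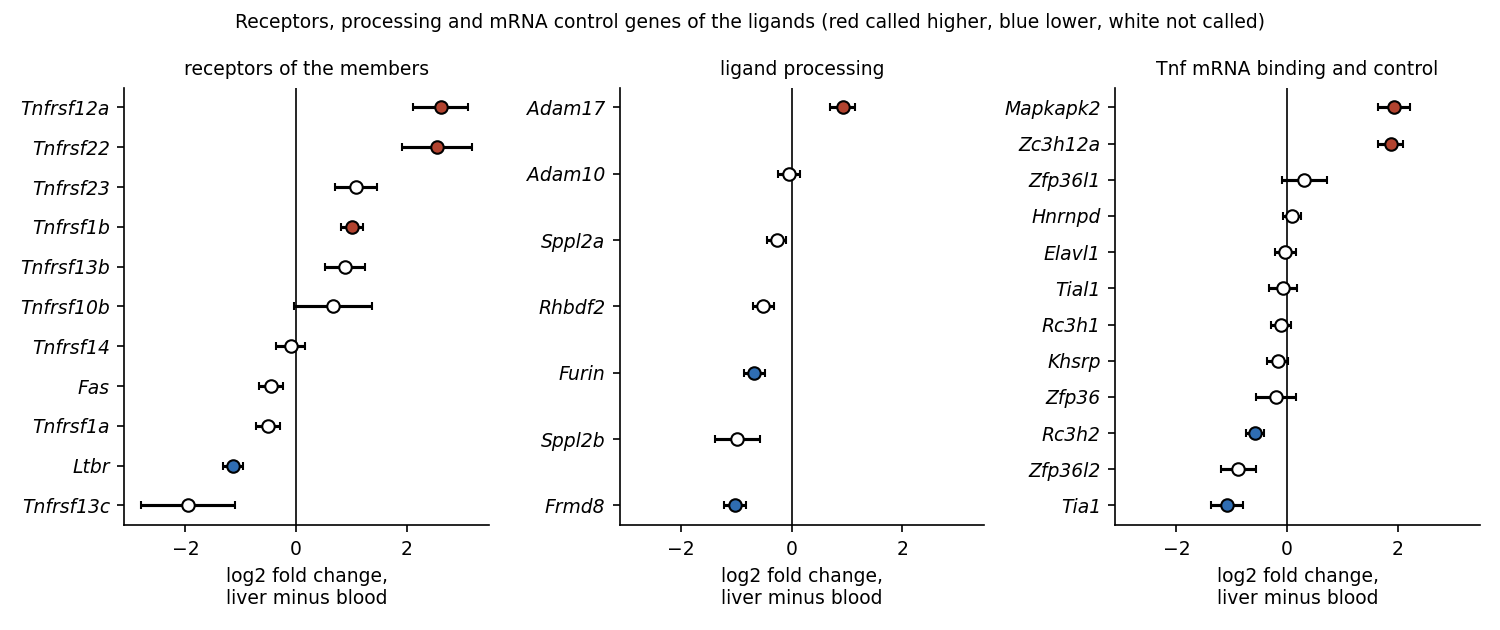
Log2 fold change (liver minus blood) with standard errors of the tested receptors, processing genes and Tnf mRNA control genes, coloured by call. Tnfrsf12a at 2.61 and Mapkapk2 at 1.93 stand highest in their panels, and Adam17 at 0.92 is the one processing gene called higher.

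Genes whose profile over the 6 libraries was most like that of a called ligand were found by the root mean square difference of log2 CPM, each gene centred on its own mean, among 6275 genes with a mean of at least 10 CPM. For Tnf the nearest were Spp1 (difference 0.278), Mreg (0.388) and Bhlhe40 (0.389). Spp1, encoding osteopontin, had 55.9, 68.3 and 43.0 CPM in liver and 1.80, 2.72 and 1.61 CPM in blood, with its highest values in the same library of each group as Tnf. For Fasl the nearest were Piezo1 (0.146), Apoc2 (0.210) and Trio (0.212), and for Tnfsf12, Scpep1 (0.277) and Prdx1 (0.402) were among the nearest. Prdx1 (0.276) was also among the nearest of Tnfsf13, after Ciart (0.243) and before Srxn1 (0.324). For Tnfsf13b they were Zfyve27 (0.067), Mbp (0.073) and Rassf5 (0.086), and for Tnfsf14 Zbtb41 (0.146), Parp9 (0.152) and Fam214b (0.152).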

How the data were processed

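RNA from 3 liver and 3 blood libraries of Ly6G-selected cells was sequenced as paired-end, stranded total-RNA libraries (labels' protocols). The deposited expected counts per gene were estimated by the authors with RSEM after STAR alignment to GRCm38, per the submitters' processing notes, where FastQC 0.11.5 and limma are listed too. The sources used here do not give the versions of STAR and RSEM or the strand setting. Whether reads of overlapping antisense genes were kept apart is therefore unknown. Expected counts were rounded, filtered with filterByExpr (minimum count 10, minimum total 15), scaled by TMM and compared between liver and blood with edgeR 4.0.16 in R 4.3.3 (glmQLFit with robust estimation, then glmQLFTest), with Benjamini-Hochberg adjustment over 13458 genes. The test was tried on simulated counts. A floor of 3 counts equals 0.181 to 0.263 CPM. DESeq2 1.42.0 and limma-voom (limma 3.58.1) were alternatives. Annotation, exon length (the union of exons of all transcripts) and message ends came from GENCODE M21 (GRCm38), which 98.9% of rows matched, and promoters from RefSeq.

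The ligands, lists and tests were chosen with earlier results of these data known. The text names all 10 ligands, list genes that were called, and for each called ligand the 3 nearest profiles (prior count 1), of which 1 for Tnfsf12 is not reported here. No 2 libraries of a group were the same library by a chi-square of their counts. The study's design text gives 3 mice but does not tie libraries to mice, so the p-values cover the variation among these libraries, which may be technical.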

Additional observations from a re-analysis of the deposited data

How the results depend on the processing

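Tnf, Fasl, Tnfsf13 and Tnfsf13b kept their direction and their call in every alternative run, with log2 fold changes of 4.29 to 4.83, 2.76 to 3.40, 2.44 to 4.19 and -1.69 to -1.53. Tnfsf9 became called with DESeq2 (1.85), library totals (2.03), limma-voom (2.42), no low-count filter (1.86) and the replicate block (2.29), and ran from 1.40 to 3.25 with 1 library left out. With 1 library left out, Tnfsf12 ran from 2.87 to 4.96, Tnfsf14 from -1.19 to -0.68 and Ltb from -0.84 to -0.33. Without both liver 3 and blood 1, Tnfsf14 was not called (-0.93), 1 ligand was called lower in place of 2, and 1195 genes were called lower in place of 1916. With 1 library left out, 3 to 4 ligands were called higher and 1 to 3 lower. Of 272 recomputed values for 16 genes around the ligands, 253 kept direction and call, 16 lost the call, 1 gained it and 2 reversed, both Zfp36, which ran from -0.56 to 0.11 with 1 library left out, at 0.11 without blood 1 and 0.33 without liver 3 and blood 1. The causes were not tested.

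Whether same-numbered libraries share a mouse is not stated, and it cannot be settled from these values. Because the labels do not tie the numbers to mice, the numbers were not used as pairs in the main test. Deviations of same-numbered liver and blood libraries correlated at r = 0.043, 0.135 and 0.009 over 13458 genes. The value of 0.135, for liver 2 and blood 2, was the highest of any liver and blood combination. Liver 3 was closest to blood 1 (0.121). With the replicate block, Ltb had -0.57 and was called lower (adjusted p = 0.0402), as was Tnfrsf1a (-0.51, adjusted p = 0.0228), Tnfrsf22 lost its call (2.43, adjusted p = 0.0820), and 2322 genes were called higher and 2312 lower. Depth limits Lta and Tnfsf10, and the blood values of Fasl, Tnfsf12 and Tnfsf13.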
